A study of Homo sapiens with 4 samples.

Results

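The 10 genes described here encode core components of the Notch pathway. They are the receptors NOTCH1, NOTCH2 and NOTCH3, the ligands JAG1, JAG2 and DLL1, the glycosyltransferase LFNG, the DNA-binding factor RBPJ and the coactivators MAML1 and MAML2. The genes were chosen by name, and an N6-methyladenosine (m6A) site was assigned to one of them when it lay on the same strand in an annotated exon. Of 18789 m6A sites in the list, 7 lay in exons of these genes, 5 in NOTCH2 and 2 in NOTCH1. The remaining 8 genes (NOTCH3, JAG1, JAG2, DLL1, LFNG, RBPJ, MAML1 and MAML2) had 0 sites. No site lay in an intron or on the opposite strand of any of the 10 genes.

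The sites come from miCLIP2, which binds an antibody against m6A to fragmented RNA, fixes it there by ultraviolet crosslinking and reads the modified position from where the cDNA ends. Polyadenylated RNA was taken from C643, a line established from an anaplastic thyroid carcinoma and grown untreated. The labels give all samples as WT (wild type) and name no genetic change. There was 1 group with 3 biological replicates in 4 libraries, since replicate 1 was made as 2 technical libraries. The authors pooled the replicates into 1 list with 1 prediction score per site from m6Aboost, their machine learning classifier, so no spread between replicates and no test between groups could be computed.

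The median score of the list was 0.754 and its range 0.50 to 1. A score is the output of the classifier, not the fraction of RNA molecules that is methylated. Read counts and expression were not analysed here, so in a gene without a listed site, unmodified RNA and too few reads cannot be told apart. Of 6 thyroid follicular marker genes (TG, TSHR, SLC5A5, PAX8, NKX2-1 and FOXE1), 0 had a listed site, and a list of sites cannot show whether they were expressed. Shares below are followed by 95% Wilson intervals, which cover the counting of sites or motifs only.

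Notch receptors are membrane proteins that are activated by a ligand on a neighbouring cell. Proteolytic cleavage then frees the intracellular part, which enters the nucleus and joins RBPJ and a Mastermind-like coactivator on target genes. The m6A mark is deposited on nascent mRNA mainly by the METTL3 and METTL14 complex, which prefers the DRACH motif (D is A, G or T, R is A or G, H is A, C or T). It is best known from long internal exons, regions around stop codons and 3′ UTRs, whereas coding sequence close to exon junctions is usually poor in it.

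The first sequences are those of a site in NOTCH1 and a site in NOTCH2 that fell on aligned nucleotides of the paralogous coding sequences. This comparison was made after the positions were known, and the aligned nucleotides of NOTCH3 and NOTCH4 are shown with them. Each line gives 21 nt of the transcript strand from GRCh38, 5′ to 3′, with the pentamer around the central adenosine in capitals. All these genes lie on the minus strand.
NOTCH1, chr9:136505012, exon 26, listed: gacgggctGGACTgtgcggag
NOTCH2, chr1:119923898, exon 26, listed: gatgggctGGACTgtgctgct
NOTCH3, chr19:15174308, exon 25, not listed: gatgggctGGATTgtgccagc
NOTCH4, chr6:32201408, exon 22, not listed: gatggaggTGACTgcaggcct

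The other sequences come from the last exons and show the contexts outside this coding position. The first is a coding site of NOTCH1, followed by a pair of sites of NOTCH2 just after its stop codon and by the 1 site of these genes that was not at DRACH. Capitals again mark the pentamer.
NOTCH1, chr9:136496937, coding: ggcctttgAGACTggcccacc
NOTCH2, chr1:119915282, 3′ UTR: cagtgtagAGACAtaactgac
NOTCH2, chr1:119915273, 3′ UTR: gacataacTGACTtttgtaaa
NOTCH2, chr1:119914743, 3′ UTR, not at DRACH: catgaaagCAACTttggtctc

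A listed site was present in 2 of the 10 genes (20%, 5.67 to 50.98), against 18.7% of the 20033 protein-coding genes of the annotation. The share was therefore close to that of all genes. Both genes with sites encode receptors, but the receptor NOTCH3 had no site. No ligand, modifier or nuclear factor among the 10 had one. Of the 7 sites, 5 lay in last exons (71.4%, 35.9 to 91.8) and 2 in other exons, and of the listed DRACH motifs in coding genes with more than 1 exon 75.2% were in last exons. By region, 3 were in coding sequence, 4 in the 3′ UTR (57.1%, 25.0 to 84.2) and 0 in the 5′ UTR. At DRACH there were 6 of the 7 sites (85.7%, 48.7 to 97.4), against 88.7% of all listed sites. The share at DRACH was near that of the list, and the last-exon share was near that of listed DRACH motifs in those coding genes.

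**Figure D1:**
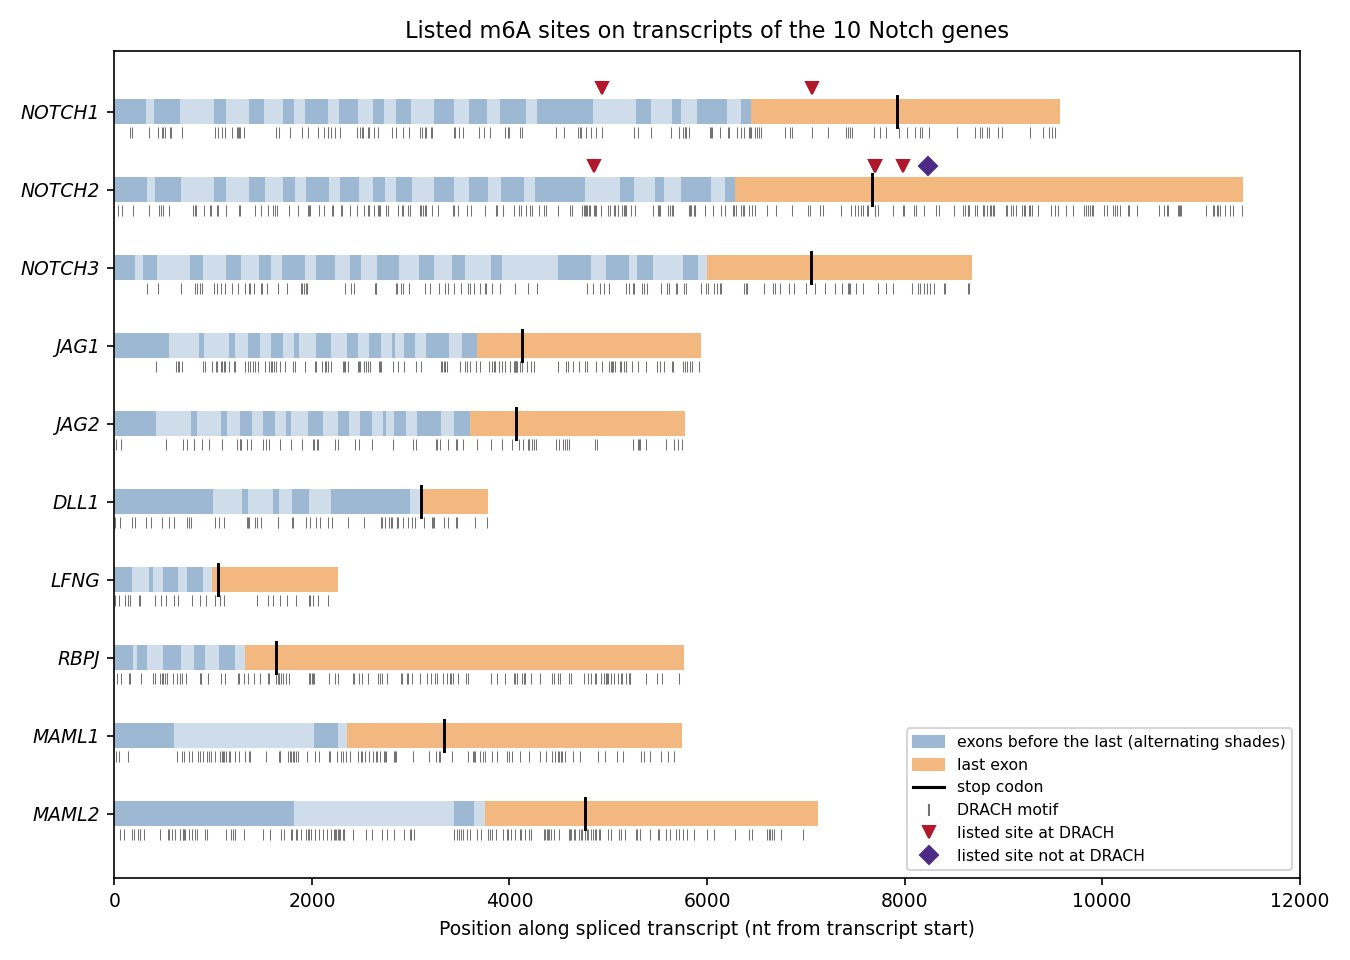
Position along the spliced transcript in nt (x axis) for the 10 genes (y axis), with exons before the last in alternating blue, the last exon in orange, the stop codon as a black line and every DRACH motif as a tick. Markers above NOTCH1 and NOTCH2 show the 7 listed sites, of which a pair in NOTCH2 lies 9 nt apart and appears as 1 marker, and the other 8 genes have motifs along their length but no marker.

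NOTCH1 (ENSG00000148400.13, chr9:136494433-136546048) encodes the receptor whose gain-of-function mutations are known from T cell leukaemia. Its chosen transcript had 34 exons and 9568 nt, of which the last exon took 3126 nt (32.7%). The other exons were short, with a median of 156 nt, and 21 of 33 were no longer than 200 nt. Both listed sites were coding.

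The upstream site of NOTCH1 lay in exon 26, which is 432 nt long, at a GGACT motif with a score of 0.820. This score exceeded that of 67.3% of the sites in the list. The site was 92 nt from the nearer exon junction, in codon 1560 of 2555. Exon 26 held 3 DRACH motifs in all, and its 1 GGACT was the one listed. As background, this stretch of a Notch receptor belongs to the extracellular region next to the membrane that holds the receptor inactive until ligand binds.

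The downstream site of NOTCH1 lay in the last exon, 621 nt after its start, at an AGACT with a score of 0.750, near the median of the list. It was in codon 2268, at position -864 nt from the first nucleotide of the stop codon, in the intracellular part of the receptor. In the alignment of the coding sequences this nucleotide stood opposite a gap in NOTCH2, NOTCH3 and NOTCH4, so no matching position could be examined. The last exon of NOTCH1 had 17 DRACH motifs in coding sequence, of which this was the 1 listed, and 19 in the 3′ UTR, of which 0 were listed.

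NOTCH2 (ENSG00000134250.21, chr1:119911553-120100779) encodes a receptor that is widely expressed and has well known roles in bone, liver and B cells. Its transcript of 11425 nt also had 34 exons, with the same median of 156 nt for the exons before the last and again 21 of 33 of them no longer than 200 nt. The last exon was larger than in NOTCH1, with 5142 nt (45.0%), of which 3753 nt were 3′ UTR. NOTCH2 had 1 coding site and 4 sites in the 3′ UTR.

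The coding site of NOTCH2 had the highest score of the 7, 0.858, above 77.9% of the list. It lay in exon 26 of 348 nt at a GGACT, 86 nt from the nearer junction, in codon 1533 of 2471. Exon 26 of NOTCH2 held 14 DRACH motifs, and of its 2 GGACT motifs the other, at chr1:119923751, was not listed.

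The 4 sites in the 3′ UTR of NOTCH2 all lay within 600 nt of the stop codon. Counted from the first nucleotide of the stop codon, the first site was at 26 nt, an AGACA with a score of 0.605, the lowest of the 7 and above only 18.4% of the list. The next, 9 nt downstream, was a TGACT at 35 nt with a score of 0.814. The third was an AGACA at 310 nt with a score of 0.655, and the last was a CAACT at 565 nt with a score of 0.802. Both AGACA sites thus scored below the list's median and both other sites above it.

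The CAACT site was the 1 site of these genes outside DRACH. CAACT was the pentamer of 74 sites in the whole list, against 4072 at GGACT, 1870 at AGACT, 1310 at TGACT and 502 at AGACA. Its score exceeded that of 62.6% of the list, higher than both AGACA sites of the same UTR. A GGACT motif at chr1:119914981, 17 nt after the AGACA site at 310 nt, was not listed.

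The clustering near the stop codon was described with a limit of 600 nt that was chosen after the positions were known. Within it, 3 of 10 DRACH motifs of the NOTCH2 3′ UTR were listed, and beyond it 0 of 67. Over all coding host genes with a 3′ UTR longer than that, 17.98% of 25206 motifs within 600 nt and 3.67% of 63432 motifs farther away were listed. In NOTCH1 0 of 7 motifs within 600 nt and 0 of 12 beyond it were listed. The counts in the receptors are too small to place them above or below the hosts.

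**Figure D2:**
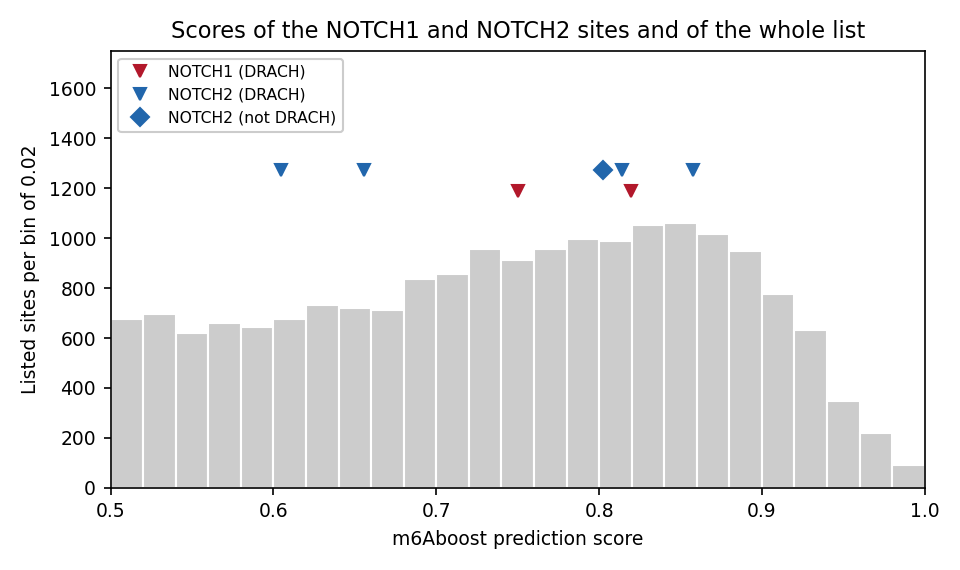
Number of listed sites in the whole list per score bin of 0.02 (grey bars, y axis) against the m6Aboost score (x axis), with the 2 sites of NOTCH1 in red and the 5 of NOTCH2 in blue above the bars (heights of the markers carry no value). The 7 sites run from 0.605 to 0.858, 5 of them at or above 0.7, and none lies above 0.858.

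The median score of the 7 sites was 0.802 (quartiles 0.703 and 0.817), and that of the list was 0.754 (0.640 and 0.847). The quartiles of the 7 sites lay inside those of the list. Within the receptors, both GGACT sites in exon 26 had the highest scores, 0.858 and 0.820. Sequence was an input of the classifier, so motif and score are not independent measures.

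The 2 sites in exon 26 were aligned base to base, a comparison made after their positions were known. Each receptor had 10 GGACT motifs in its coding sequence, and when the coding sequences were aligned, 1 pair of them matched, which was the pair with listed sites. Over all DRACH motifs, 108 in NOTCH1 and 145 in NOTCH2, 34 pairs were aligned. Of these pairs 1 was listed in both genes, 0 in only 1 of them and 33 in neither. Of the 21 nt printed above, 17 were identical between NOTCH1 and NOTCH2, and of the following 50 nt 32 were identical. The classifier took this 21-nt window as input, so the 2 calls are not independent of the shared sequence.

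In NOTCH3, the receptor of vascular smooth muscle that is mutated in the inherited small vessel disease CADASIL, the aligned adenosine lay in exon 25 of 33, 92 nt from the nearer junction as in NOTCH1. Its pentamer was GGATT, which is not a DRACH motif, and it was not listed, while 191 sites elsewhere in the list were at GGATT. Its 21 nt shared 15 with NOTCH1 and 16 with NOTCH2. In NOTCH4, an endothelial receptor that was not among the 10 genes, the aligned pentamer was TGACT in exon 22 of 30, and it was also not listed. NOTCH3 and NOTCH4 had 0 sites anywhere, so whether the position or the whole transcript lacked signal cannot be told apart.

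Last exons are far larger than the rest in NOTCH1 and NOTCH2, so sites were set against the DRACH motifs that each exon offers. In NOTCH1 1 of 36 motifs in the last exon (2.78%, 0.492 to 14.2) and 1 of 93 in the other exons (1.08%, 0.190 to 5.84) were listed. In NOTCH2 these were 3 of 99 (3.03%, 1.04 to 8.53) and 1 of 126 (0.794%, 0.140 to 4.36). For both receptors together the share was 2.96% (1.16 to 7.37) in last exons and 0.913% (0.251 to 3.27) in the others. Receptor shares here and below cover NOTCH1 and NOTCH2 only, and leave out NOTCH3, which had no site. With sites scoring at least 0.7 alone, the last-exon share was 1.48%, and with RAC (A or G, then AC) in place of DRACH the share in the other exons was 0.449%. The last exon had the higher share in both genes, but the intervals overlapped.

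In the 3633 coding host genes with more than 1 exon, which all have a site, were thus chosen on the same list and include both receptors, 9.99% of the motifs in last exons and 3.67% in other exons were listed. Over all exons the share was 7.00%, against 1.69% (0.779 to 3.65) in NOTCH1 and NOTCH2 together. The hosts' shares thus lay above the intervals of both receptors together for last exons, for the other exons and for all exons. NOTCH1 and NOTCH2, like the hosts, enter here because they have a site. Over all 10 genes, with the 8 that had none, the share was 0.531% (0.244 to 1.15). Among the 132 hosts with at least 30 exons, again with both receptors among them, the shares were 11.2% for last exons, 2.26% for others and 4.15% over all exons, of which the value for other exons lay inside the interval of the receptors. Depth per gene is unknown, and its part in these differences was not tested.

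**Figure D3:**
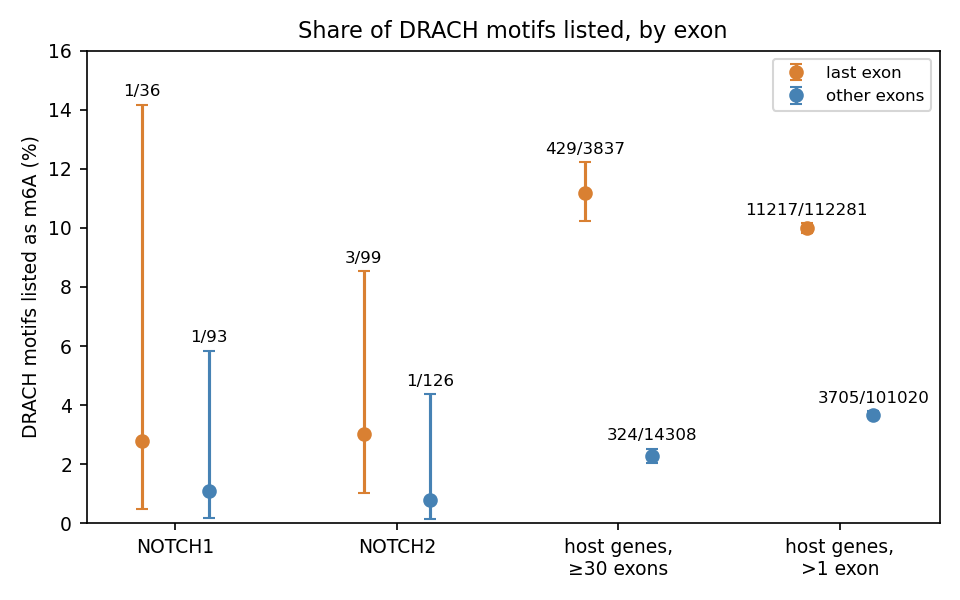
Percent of DRACH motifs that were listed (y axis) in the last exon (orange) and in the other exons (blue) of NOTCH1, NOTCH2, host genes with at least 30 exons and host genes with more than 1 exon, with 95% Wilson intervals and the counts above them. In each set the last exon has the higher share, with 2.78% against 1.08% in NOTCH1, 3.03% against 0.794% in NOTCH2, 11.2% against 2.26% in hosts with at least 30 exons and 9.99% against 3.67% in hosts with more than 1 exon, and the intervals of last and other exons overlap in NOTCH1 and in NOTCH2.

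Among hosts with at least 100 DRACH motifs, of which there were 455, the median gene had 2.88% of its motifs listed. NOTCH1 with 1.55% (0.426 to 5.48) was above 32.7% of them and NOTCH2 with 1.78% (0.693 to 4.48) above 36.5%. Both therefore ranked in the lower part of the large transcripts, with intervals that included the median. Of 3733 hosts, 39.8% had at least the 5 sites of NOTCH2 and 79.7% at least the 2 sites of NOTCH1.

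The last exons divided by region as follows. In the hosts 17.5% of motifs in the coding part of the last exon and 8.68% in the 3′ UTR part were listed, and in those with at least 30 exons 15.3% and 10.5%. In both receptors together these were 1 of 39 (2.56%, 0.454 to 13.2) and 3 of 96 (3.13%, 1.07 to 8.79). The single coding site was in NOTCH1 and all 3′ UTR sites at DRACH were in NOTCH2, where 0 of 22 coding motifs in the last exon were listed, which allows a share of up to 13.6%.

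The short exons of the receptors were without sites. In exons before the last of at most 200 nt, 0 of 107 motifs in NOTCH1 and NOTCH2 were listed, which allows a share of up to 2.80%, and the share in the hosts was 1.41%. In longer exons before the last it was 2 of 112 (1.79%, 0.491 to 6.28), against 7.38% in the hosts, which lay outside the interval, and 5.64% in hosts with at least 30 exons, which lay inside it. Both of those sites were in exon 26, an exon longer than 200 nt in both genes.

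These sites were nevertheless close to a junction. Within 100 nt of a junction 2 of 182 motifs before the last exon were listed (1.10%, 0.302 to 3.92), and the share in the hosts was 1.88%. For GGACT alone it was 2 of 12 (16.7%, 4.70 to 44.8) in the receptors and 9.15% in the hosts, inside the interval. Both listed motifs were the aligned pair that was compared after their positions were known. Over all 10 genes, including those without a site, this GGACT share was 2 of 21 (9.52%, 2.65 to 28.9), close to that of the hosts. The receptors' higher value therefore depended on which genes were included. In the last exons 0 of 7 GGACT motifs of the receptors were listed, which allows a share of up to 42.9%, and 34.2% were listed in the hosts. Over all exons 2 of 27 GGACT motifs (7.41%, 2.06 to 23.4) were listed, against 24.9% in the hosts, outside the interval, and 15.6% in hosts with at least 30 exons, inside it.

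The remaining 8 genes offered 775 of the 1129 DRACH motifs of the 10 genes, and 34 of the 61 GGACT motifs. The 8 genes were grouped because they had no site, so 0 of 775 listed follows from the grouping and sets no limit on their share. The limits given below for single genes assume enough reads, which was not checked. Their exon structures and motifs are given here by role.

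NOTCH3 resembled the other receptors in structure, with 33 exons, a median of 156 nt for those before the last, and a last exon of 2677 nt (30.8% of 8680 nt). Its 116 DRACH motifs, 38 of them in the last exon, included 9 GGACT motifs. With 0 listed, a share of up to 2.59% is allowed, which includes the values of NOTCH1 and NOTCH2.

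The ligands JAG1, which is mutated in Alagille syndrome, and JAG2 also follow the pattern of many short exons and a large last one. Each had 26 exons, 21 of the 25 before the last being no longer than 200 nt, and last exons of 2272 nt and 2176 nt. JAG1 had 127 DRACH motifs, of which 56 were in the last exon, and JAG2 had 70, of which 29 were. DLL1, a ligand of the Delta type known for its role in somite formation, differed in that its last exon was only 674 nt (17.8%) while an earlier exon reached 993 nt. It had 57 DRACH motifs, of which 10 were in the last exon.

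LFNG encodes the Fringe enzyme that extends O-fucose on the receptors and changes their response to ligands. It had the shortest transcript, 2268 nt in 9 exons, with 1282 nt in the last exon and 30 DRACH motifs, so the count of 0 allows a share of up to 10%.

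RBPJ, the factor through which the cleaved receptors reach DNA, had the transcript with the largest share in the last exon. The last exon took 4440 of 5761 nt (77.1%), all 10 others were no longer than 200 nt, and 92 of 119 DRACH motifs were in it. No site was listed there or elsewhere in RBPJ, which allows a share of up to 2.52%.

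The coactivators MAML1 and MAML2 bind the complex of the cleaved receptor with RBPJ, and have few and large exons. Both had 5 exons, with earlier exons of up to 1416 nt and 1813 nt and last exons of 3389 nt and 3366 nt. MAML1 had 104 DRACH motifs and MAML2 had 152, the second most of the 10 genes after NOTCH2. The floors for a count of 0 were 2.88% and 1.97%, so MAML2 was the one gene without sites for which the floor lay below 2%.

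Some stretches of these transcripts also occur in transcripts of other genes, and uniquely mapping reads are lost where those lie elsewhere in the genome. Where the other genes lie was not checked. A 41-nt window around the motif occurred in another gene for 12 DRACH motifs of NOTCH2, all in exons 1 to 4, and the genes that share them include NOTCH2NL and NBPF genes. The same held for 5 motifs of JAG2 and 5 of RBPJ, the latter shared with RBPJ pseudogenes. None of these motifs was in a last exon, and the windows of the listed DRACH motifs were not among them.

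For context, 44 other genes of the pathway were counted by role. Of these, 13 had a site (29.5%, 18.2 to 44.2), an interval that holds the 18.7% of all protein-coding genes. They together held 58 sites, 44 of them in last exons (75.9%, 63.5 to 85.0). The coding sequence held 27 of these sites, the 3′ UTR 27, the 5′ UTR 0, and 4, all in CTBP1, lay in exons of other transcripts. The last-exon share, which counts the 4 CTBP1 sites as outside last exons, was close to the 75.2% in the hosts. That value is a share of listed DRACH motifs, not of all sites.

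By role, the remaining receptor (NOTCH4), the other ligands (DLL3 and DLL4) and the other coactivator (MAML3) had no site. The numbers per role are small, and the share over all protein-coding genes was 18.7%. Sites were present in 2 of 4 glycosyltransferases, 1 of 3 ubiquitin ligases of the ligands, 1 of 3 proteases that process the receptor and 2 of 6 subunits of gamma-secretase, the enzyme that frees the intracellular part. They were also present in 2 of 8 genes of receptor turnover, 1 of 5 corepressors and 3 of 4 acetyltransferases. Of 7 target genes 1 had a site, which was HES4, named here after its value was seen.

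Of these 44 genes, the 3 with the most sites were APH1A, FURIN and KAT2A. APH1A, a subunit of gamma-secretase, had 10 sites, all in its last exon, and 10 of its 47 DRACH motifs were listed. FURIN, the protease that cleaves the receptor precursor, had 10 sites in its last exon, 6 coding and 4 in the 3′ UTR, at 10 of its 62 DRACH motifs. KAT2A, a histone acetyltransferase, had 7 sites, 6 of them in the 3′ UTR between 49 and 361 nt after the start of the stop codon, with scores from 0.588 to 0.904, and 6 of its 51 DRACH motifs were listed. These genes therefore had more sites on fewer motifs than NOTCH2 with 5 sites and 225 motifs.

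**Figure D4:**
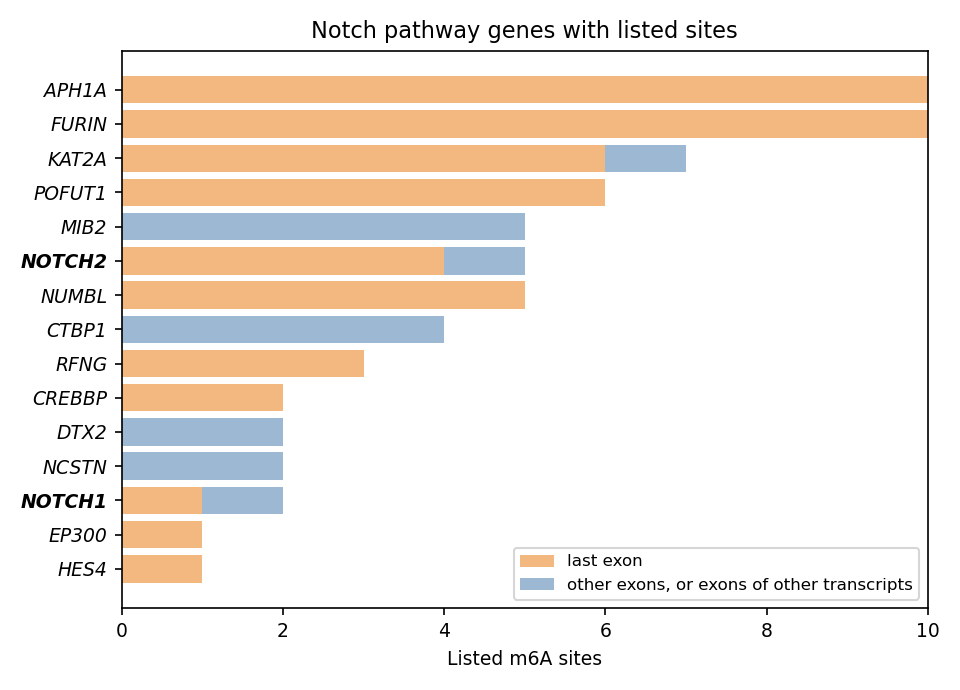
Number of listed m6A sites (x axis) in each of the 15 Notch pathway genes that had any (y axis, the 2 receptors in bold), split into last exon (orange) and other exons or exons of other transcripts (blue). APH1A and FURIN have 10 sites each, KAT2A has 7, and NOTCH2 and NOTCH1 have 5 and 2.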

How the data were processed

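The data are miCLIP2 sites of poly(A)-selected RNA from C643 cells without treatment. The authors aligned reads to GRCh38.p12 with STAR 2.7.3a, kept uniquely mapping reads, removed duplicates by molecular identifiers (UMI-tools 1.0.0), called peaks per replicate with PureCLIP, required a peak to recur in a further replicate, and used m6Aboost to classify those located at an A. The deposited score is a fraction between 0 and 1, pooled over replicates. Transcript region, the surrounding sequence, C-to-T transitions and signal relative to the gene were classifier inputs, so regions and motifs here are not independent of the calls. Depth per site is unknown.

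Positions are given 1-based, and 100% of the sites fell on an A of the reference. Exons came from GENCODE release 44, a later release than that of the authors. Each gene was represented by its longest protein-coding transcript that passed the GENCODE filters (support level 3 or better where one was assigned, annotation level 2 or better). A motif counted as listed when its adenosine was in the list. The last exon was compared with all others, with limits of 200 nt for short exons and 100 nt for nearness to a junction. Coding sequences of the receptors were aligned with mafft 7.526. Intervals are Wilson intervals at 95%, and a count of 0 allows up to 3 counts. Both cover counting error only. Computation of the shares was tried on motifs listed at random at set rates. This does not test the assignment of sites to exons or the matching of motifs.

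All 10 genes were named, with every site of a gene that had 5 or fewer. Of the other pathway genes, the counts by role and the 3 with the most sites were named, and 1 gene each of the pathway and marker lists is not reported here. The windows of the highest-scoring site of each gene and of the site outside DRACH were printed by rule, and the other windows, among them those of NOTCH3 and NOTCH4, were chosen after their values were seen. The genes and lists were chosen with earlier results of these data known. Alternatives changed the score threshold, the transcript, the motif background, the distance to junctions and the genes included. Tables were made in Python 3.11.15 with pandas 2.3.3 and numpy 2.4.6, sequences were read with pysam 0.24.0, intervals came from scipy 1.17.1, and plots from matplotlib 3.10.9.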

Additional observations from a re-analysis of the deposited data

How the results depend on the processing

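Of 25 alternative values for 7 results, 22 stayed within the interval of the value given in the report, or for counts within 1.5 times of it. For the median score the quartiles served as the interval. The intervals are wide and the canonical transcripts gave the same values as the chosen ones, so this count does not show stability. The other 3 values moved. Without NOTCH2, the gene with the most sites, the share of sites in the 3′ UTR was 0% and the share at DRACH was 100%, each over the 2 sites of NOTCH1. When motifs had to lie over 100 nt away from every junction, the share listed in exons before the last was 0%, over 37 motifs, because both listed motifs there lie closer to a junction. At a score of at least 0.7, 5 sites were left, and the listed share was 1.48% in last exons and 0.913% in the others. With RAC motifs as background these shares were 2.69% and 0.449%.

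Leaving out replicates was not possible, as the deposited list pools them. No paired analysis was possible because the list holds a single group. With 7 sites in 2 genes, the intervals are wide, and the depth behind a gene without sites is unknown.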
